A study of Rattus norvegicus with 10 samples.

Results

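The endoplasmic reticulum (ER) chaperones and the genes of the unfolded protein response were examined in rat pancreatic islets. The 40 genes came from a fixed list of folding factors, ER-associated degradation (ERAD) genes, stress sensors and genes downstream of the kinase PERK. Each gene was represented by the array probeset that carried its symbol and no other and had the highest mean over the 10 arrays. A probeset was present for 38 of the 40 genes, out of 14217 genes with such a probeset, and all 38 passed the filter on dim signals that left 10300 genes tested. Ern1 and Derl3 had no probeset of that kind and were not analysed here.

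The cafeteria group was 5 islet samples from male Wistar rats that ate a cafeteria diet with 66% of calories as fat for 10 days, and the standard group was 5 islet samples from male Wistar rats that ate standard chow with 8% of calories as fat for the same time. The rats of both groups were 7 weeks old, were caged singly, the labels name no engineered allele, and they describe the samples as independent. Islets were freed with collagenase and picked by hand, and their RNA was hybridised to Affymetrix GeneChip Rat Genome 230 2.0 arrays. The title, source name and description of each sample (3 fields) name one diet and its diet characteristic (1 field) names the other. Samples were grouped by the 3 fields, and all signs below would turn if the diet characteristic were the correct label instead.

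The ER folds and modifies proteins bound for secretion, and beta cells, which make large amounts of proinsulin, carry a heavy load of this work. When unfolded proteins accumulate, the membrane sensors IRE1 (encoded by Ern1), PERK (encoded by Eif2ak3) and ATF6 act on transcription and translation: ATF6 and the XBP1 protein made after IRE1 splices its mRNA raise chaperone and ERAD genes, while PERK slows translation and favours ATF4 and its target CHOP (encoded by Ddit3). An array probeset measures total mRNA of a gene, so neither Xbp1 splicing nor sensor activation was measured here.

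At the level of single genes no difference passed the multiple testing threshold. Limma called 0 of the 18625 probesets tested (0%) at an adjusted p under 0.05, where 1941 had an unadjusted p under 0.05, and the lowest adjusted p of a member was 0.398. The values below are therefore descriptions of these arrays. Of the 38 members, 34 had a higher mean log2 value on the cafeteria arrays and 4 a lower one, and the median difference was 0.18 on the log2(signal + 14.15) scale, beside a median of -0.0044 and 48.7% higher over the 10300 genes. An unadjusted p under 0.05 was reached by 11 of the 38 members (28.9%) in the direction of cafeteria, against 5.02% of all genes tested, and by 0 members in the other direction, against 5.26% of all genes. The 5 cafeteria arrays all lay above the 5 standard arrays for 9 members (23.7%), against 1.06% of all genes, and all lay below them for 0 members, against 1.72% of all genes. These members were chosen with earlier results of the same arrays known, and they are not independent of each other.

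**Figure D1:**
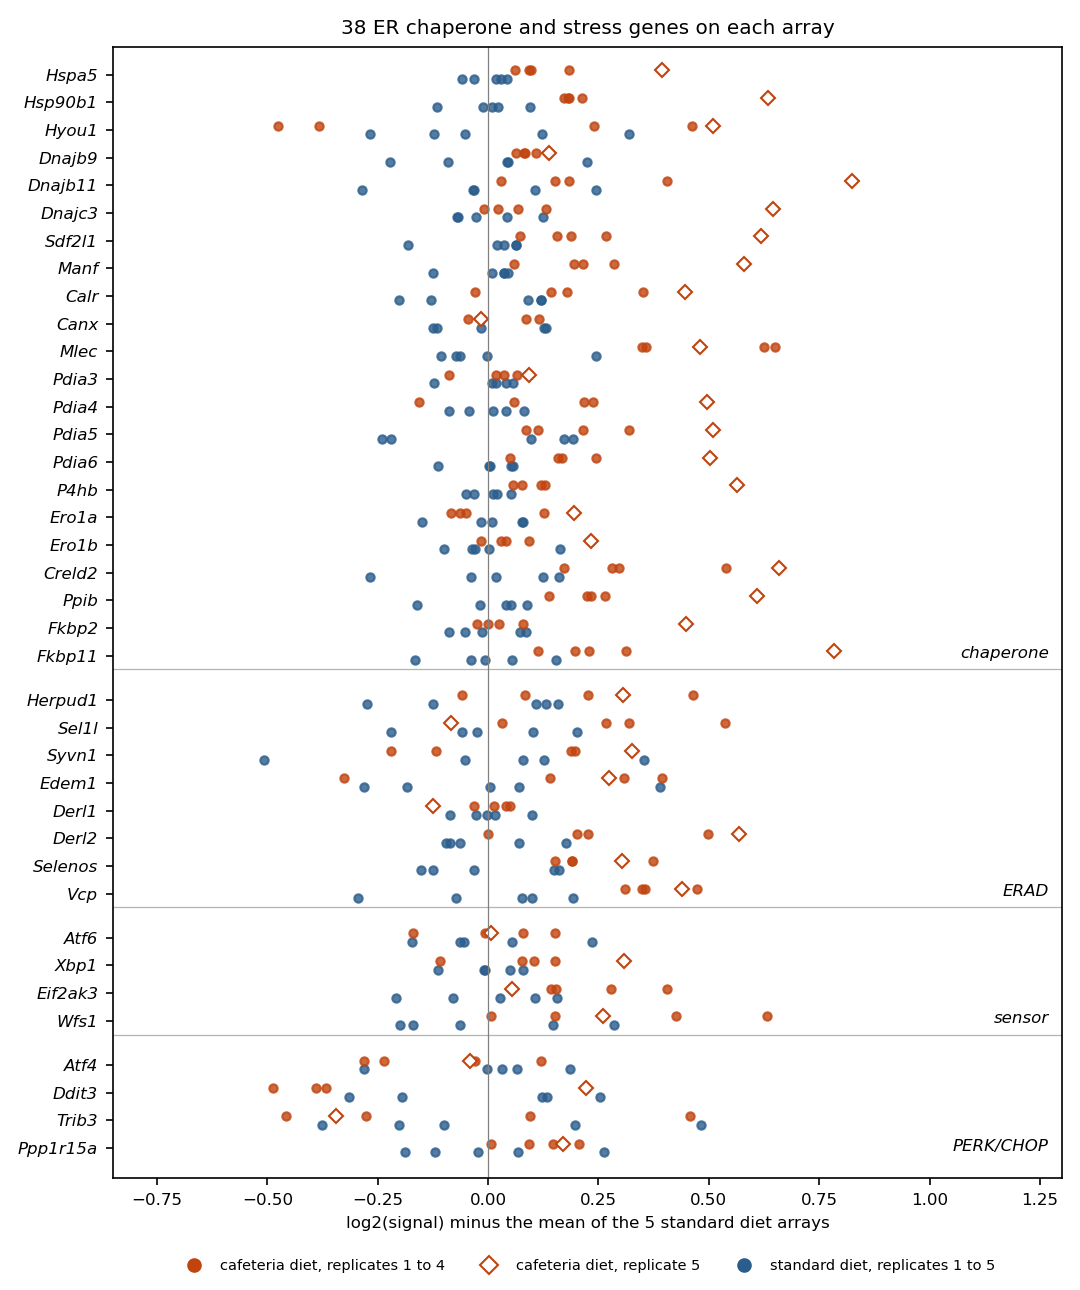
Each point is 1 array, drawn as its log2(signal) minus the mean log2(signal) of the 5 standard diet arrays (horizontal axis). No constant was added to the signal here. There is 1 row per gene, with the genes in 4 arms. Cafeteria arrays are orange, with replicate 5 as an open diamond, and standard arrays are blue. Cafeteria replicate 5 was the highest of all arrays for 21 of the 38 genes, and in the PERK/CHOP arm the groups overlapped for all 4 genes.

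The chaperone and folding arm held 22 genes. All 22 had a higher mean on the cafeteria arrays, by 0.02 to 0.48 on the log2 scale with a median of 0.20. An unadjusted p under 0.05 was reached by 8 (36.4%), against 5.02% of all genes in that direction. For 8 (36.4%) the groups did not overlap, against 1.06% of all genes with cafeteria above. In bulk islet RNA, more RNA per cell and more cells of a type that express the gene cannot be told apart.

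Hspa5 encodes BiP, the ER Hsp70 that binds unfolded chains and holds the stress sensors inactive. Its signal on cafeteria arrays 1 to 5 was 26099, 25564, 27799, 26214 and 32181, and on standard arrays 1 to 5 it was 25212, 23965, 24811, 24986 and 23514. The groups did not overlap, but the lowest cafeteria array and the highest standard array lay close together and cafeteria replicate 5 stood above the rest. The log2 difference was 0.17 ± 0.08 (SE), with an adjusted p of 0.49 by limma. It was 0.11 without cafeteria replicate 5 and 0.03 after quantile normalization.

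Hsp90b1 encodes GRP94, the ER Hsp90. It gave 20557, 20965, 20388, 20523 and 28088 on the cafeteria arrays, against 18221, 18376, 17960.4, 19329.6 and 16712 on the standard arrays. Cafeteria replicates 1 to 4 lay close together just above the standard arrays, and replicate 5 was far above them. The difference was 0.28 ± 0.10 (SE; adjusted p = 0.422 by limma), 0.19 without cafeteria replicate 5 and 0.17 after quantile normalization.

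The Hsp70 and Hsp90 machinery has helpers among the members. Sdf2l1, a partner of ER DnaJ proteins, averaged 7475 ± 1179 on the cafeteria arrays and 6197 ± 424.4 on the standard arrays (SD, n = 5 each), a difference of 0.26 that was 0.17 without cafeteria replicate 5. Its adjusted p was 0.451 by limma. Its groups did not overlap, and the nearest arrays were cafeteria replicate 3 and standard replicate 1. Manf, a secreted ER stress protein that binds BiP, gave 8791, 8664, 7895, 9230.2 and 11329 on the cafeteria arrays, against 7773, 7768, 6945, 7622 and 7811 on the standard arrays. Every cafeteria array was above every standard array, by little for replicate 3. The difference of Manf was 0.27 ± 0.10 (SE; adjusted p = 0.422 by limma) and 0.19 without cafeteria replicate 5.

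Dnajb11, Dnajb9 and Dnajc3 encode DnaJ cochaperones of BiP, and Hyou1 encodes the large Hsp70 relative that exchanges its nucleotide. Their groups all overlapped. Dnajb11 averaged 2079 ± 490.1 on cafeteria arrays and 1646 ± 220.4 on standard arrays (SD, n = 5 each), a difference of 0.32 that was 0.19 without cafeteria replicate 5. Dnajb9 differed by 0.09. Dnajc3, also known as p58IPK, differed by 0.17, and by 0.05 without cafeteria replicate 5, which held the highest value of all arrays. Hyou1 differed by 0.07 with all arrays and by -0.04 without that array, and its cafeteria arrays ranged widely, with 6380.0, 7442, 4147, 3889 and 7692 against 5215, 5886, 4963, 4493 and 6745 on the standard arrays.

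The lectin chaperones bind the sugar chains of new glycoproteins. Mlec encodes malectin, an ER protein that binds a glucosylated N-glycan early in its trimming, and it had the lowest unadjusted p of all members (0.000378 by limma, adjusted p = 0.398). Its signal was 715.2, 866.8, 719.8, 882.0 and 783.5 on the cafeteria arrays, against 561.1, 665.9, 534.7, 537.7 and 521.7 on the standard arrays. The groups did not overlap, and cafeteria replicate 5 lay in the middle of its group. The difference of 0.48 ± 0.10 (SE) was also 0.48 after quantile normalization and without cafeteria replicate 5. Calr, which encodes calreticulin, differed by 0.22, and Canx, which encodes its membrane-bound relative calnexin, by 0.02, with overlapping groups for both. Canx gave -0.02 after quantile normalization.

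The protein disulfide isomerases form and shuffle disulfide bonds, which proinsulin needs to fold. P4hb, the founding member of the family, gave 18016, 18833, 18278, 18947 and 25610.0 on cafeteria arrays, against 16749, 16939.8, 17455, 17972 and 17561 on standard arrays. Its groups were separated by a narrow gap, between cafeteria replicate 1 and standard replicate 4. The difference of 0.19 (adjusted p = 0.522 by limma) was 0.10 without cafeteria replicate 5 and 0.08 after quantile normalization. Pdia6 averaged 23188 ± 2856 on cafeteria arrays and 19752.5 ± 922.0 on standard arrays (SD, n = 5 each), a difference of 0.22 that was 0.15 without cafeteria replicate 5 and 0.11 after quantile normalization. Pdia6 groups overlapped through cafeteria replicate 4 alone, and its adjusted p was 0.4475 by limma. Pdia5 differed by 0.25 and Pdia4 by 0.17, both with overlapping groups, and Pdia4 by 0.09 without cafeteria replicate 5. Pdia3, which works with calreticulin and calnexin, differed by 0.02, and by -0.09 after quantile normalization.

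The oxidases that recharge these isomerases gave small values. Ero1b, the form that is abundant in pancreas, gave 14917, 14351, 14795, 15473 and 17043 on the cafeteria arrays, against 14218, 14151, 16244, 14520.1 and 13527 on the standard arrays, a difference of 0.08 that was 0.04 without cafeteria replicate 5. Ero1a differed by 0.02, and by -0.02 without that array. Groups overlapped for both, and the adjusted p of Ero1b was 0.742 by limma. Creld2, a gene of the ER stress response with disulfide isomerase activity, had one of the larger differences, with 6444, 5386, 4999, 5446 and 7005 on cafeteria arrays, against 4495, 4321, 3686, 4961 and 4836 on standard arrays. The Creld2 groups did not overlap, though cafeteria replicate 3 and standard replicate 4 nearly touched. Its difference was 0.39 ± 0.12 (SE; adjusted p = 0.398 by limma), 0.32 without cafeteria replicate 5 and 0.39 after quantile normalization.

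The prolyl isomerases turn proline bonds during folding. Ppib, which encodes cyclophilin B, gave 6754, 6791, 6361, 6944 and 8818 on cafeteria arrays, against 5712, 6146, 5169.8, 5989.5 and 5942 on standard arrays. Every cafeteria array was above every standard array. The difference of 0.29 ± 0.10 (SE; adjusted p = 0.412 by limma) was 0.21 without cafeteria replicate 5. Fkbp11, a membrane-anchored member of the FK506-binding proteins, averaged 4721 ± 954.3 on cafeteria arrays and 3720.0 ± 303.7 on standard arrays (SD, n = 5 each), a difference of 0.33 with overlapping groups that was 0.21 without cafeteria replicate 5. The adjusted p of Fkbp11 was 0.437 by limma. Fkbp2 differed by 0.11, and by 0.02 without cafeteria replicate 5.

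**Figure D2:**
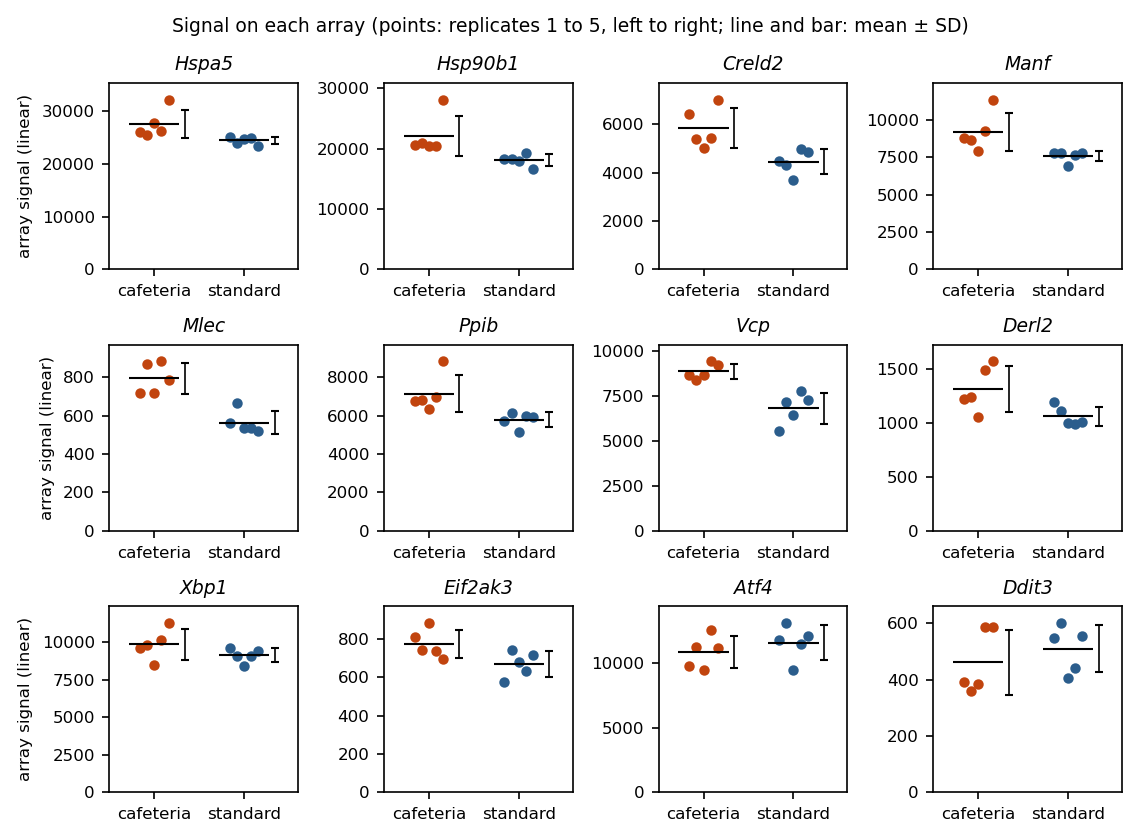
Linear array signal (vertical axes, starting at 0) of 12 members, with cafeteria arrays left and standard arrays right in each panel, points for replicates 1 to 5 and the mean with SD beside them. Cafeteria replicate 5 stands highest for Hspa5, Hsp90b1 and Ppib, whereas for Mlec and Vcp it lies inside its group.

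The promoters of these genes are shown because ATF6 and XBP1 are known to act through short elements near the start site of many of them. RefSeq promoters of the assembly GRCr8, from 250 bases before to 50 after the start, were given for 33 of the 40 listed genes and for 33469 starts in all. None was given for Manf, Pdia3, Pdia6, Ero1a, Derl1, Atf6 and Ern1. The ER stress response element (ERSE) was searched as CCAAT, 9 bases and CCACG on both strands. It was present for 9 of the 33 member genes, against 22 of all 33469 promoters (0.0657%). Since such elements were already known at many of these genes, these shares and those below are descriptions and not tests. Here and below, members are counted by gene and all promoters by start, and all promoters include those of the members. Each line below gives a match 5′ to 3′ on its own strand, with the fixed ends in capitals.
Hspa5, chr3:38452973-38452991, plus strand: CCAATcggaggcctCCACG
Hsp90b1, chr7:23012451-23012469, minus strand: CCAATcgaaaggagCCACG
Hsp90b1, chr7:23012347-23012365, plus strand: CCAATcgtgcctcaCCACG
Dnajc3, chr15:102432534-102432552, plus strand: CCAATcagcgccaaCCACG
Calr, chr19:40213135-40213153, minus strand: CCAATcagggtcgaCCACG
Canx, chr10:35158069-35158087, minus strand: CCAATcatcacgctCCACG
Ero1b, chr17:92941458-92941476, minus strand: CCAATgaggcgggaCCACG
Creld2, chr7:121789239-121789257, minus strand: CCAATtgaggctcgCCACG
Xbp1, chr14:84604558-84604576, plus strand: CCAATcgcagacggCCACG
Derl3, chr20:12766601-12766619, plus strand: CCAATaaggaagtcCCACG

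Of the genes listed, Derl3 was not analysed on the array, and the differences of the other 8 ran from 0.02 (Canx) to 0.39 (Creld2). A match to these letters is a description of the sequence and not a bound site. The related element ERSE-II, searched as ATTGG, 1 base and CCACG on both strands, was present for 3 member genes (Hyou1, Dnajb11 and Herpud1), against 17 of all promoters (0.0508%). Hyou1 held it at a pair of places.
Hyou1, chr8:53602694-53602704, minus strand: ATTGGcCCACG
Hyou1, chr8:53602794-53602804, minus strand: ATTGGgCCACG
Dnajb11, chr11:91672800-91672810, minus strand: ATTGGcCCACG
Herpud1, chr19:10614821-10614831, minus strand: ATTGGgCCACG

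The shorter core of the UPR element, TGACGTG, searched on both strands, was found for 3 member genes (Hspa5, Hyou1 and Vcp) and in 1.81% of all promoters, and in Hyou1 it overlapped the first ERSE-II match. The amino acid response element core TTGCATCA, to which ATF4 and its partners bind, searched likewise, was found for 1 member gene (Herpud1) and in 0.795% of all promoters. The 250 bases before the Hspa5 start are printed whole, since BiP is the reference gene of this response. The ends of its exact ERSE match are in capitals. Variant copies of the element were not searched.
Hspa5, chr3:38452766-38453015, plus strand: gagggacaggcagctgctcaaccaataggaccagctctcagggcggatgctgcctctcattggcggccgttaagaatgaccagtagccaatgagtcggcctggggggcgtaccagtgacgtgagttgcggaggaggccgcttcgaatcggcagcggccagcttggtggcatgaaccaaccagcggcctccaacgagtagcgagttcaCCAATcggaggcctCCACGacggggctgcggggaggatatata

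The Creld2 promoter is printed beside it because Creld2 had the second largest log2 difference of the arm. Mlec, which had the largest, had no match to any element searched, and neither had Fkbp11, Ppib or Sdf2l1. The exact ERSE match of Creld2 lies on the opposite strand to the gene. The capitals here are therefore the reverse complement of the match printed for Creld2 above.
Creld2, chr7:121789134-121789383, plus strand: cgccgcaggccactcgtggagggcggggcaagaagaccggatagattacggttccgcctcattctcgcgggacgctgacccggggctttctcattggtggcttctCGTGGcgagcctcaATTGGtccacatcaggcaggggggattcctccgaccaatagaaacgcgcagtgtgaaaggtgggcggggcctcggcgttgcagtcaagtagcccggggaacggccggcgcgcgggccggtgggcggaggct

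The ERAD arm, which returns misfolded proteins to the cytosol for destruction, had 8 measured genes. Of these, 7 had a higher mean on the cafeteria arrays, with a median difference of 0.21 and a range of -0.01 to 0.38. An unadjusted p under 0.05 was reached by 3 (37.5%), all higher in cafeteria, against 5.02% of all genes. The ERAD median was 0.13 without cafeteria replicate 4, and without that array or without standard replicate 5 only 1 ERAD gene reached that p. Vcp, the ATPase that pulls chains out of the membrane and also serves many other processes, was the ERAD gene whose groups did not overlap. It gave 8662, 8427, 8695, 9437 and 9215 on cafeteria arrays, against 5542, 7165, 6466, 7766 and 7281 on standard arrays. The standard arrays spread more widely than the cafeteria arrays, and cafeteria replicate 5 was inside its group. The difference of 0.38 ± 0.10 (SE; adjusted p = 0.398 by limma) was 0.37 without cafeteria replicate 5 and 0.36 after quantile normalization.

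Derl2 encodes a derlin, a membrane protein of retrotranslocation, and Selenos a selenoprotein that recruits VCP. Derl2 gave 1219.9, 1241, 1059.9, 1498 and 1573 on cafeteria arrays, against 1198, 1113, 998.6, 993.4 and 1015 on standard arrays, a difference of 0.30 that was 0.23 without cafeteria replicate 5. Selenos gave 4394, 4282, 4393, 4991 and 4752 on cafeteria arrays, against 3532, 4268, 3768, 4304 and 3468 on standard arrays, a difference of 0.24 that was 0.23 without cafeteria replicate 5. Groups overlapped for both genes, for Derl2 through cafeteria replicate 3 and for Selenos through cafeteria replicate 2. The adjusted p by limma was 0.439 for Derl2 and 0.422 for Selenos.

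Herpud1, a stress-induced organiser of the ERAD complex, gave 2229, 2019.9, 2462, 2904 and 2601 on cafeteria arrays, against 2268, 2305, 1741, 1931 and 2347 on standard arrays. Its groups overlapped, with a difference of 0.20 ± 0.12 (SE; adjusted p = 0.552 by limma). Sel1l and Syvn1 encode the adaptor and the ubiquitin ligase of the central ERAD complex, and they differed by 0.21 and 0.07, the value of Syvn1 being 0.01 without cafeteria replicate 5. Edem1, which encodes a mannosidase-like protein that selects glycoproteins for disposal, differed by 0.16, and Derl1 by -0.01, which was 0.02 without that array. All 4 of these had overlapping groups.

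The sensor arm had 4 measured genes, all with a higher mean on the cafeteria arrays, by 0.01 to 0.29 with a median of 0.15, and with overlapping groups in every case. No gene of the sensor arm reached an unadjusted p under 0.05 with all arrays, and 1 (Eif2ak3) did without cafeteria replicate 5. Eif2ak3, which encodes PERK, gave 810.0, 743.0, 884.5, 737.9 and 693.9 on cafeteria arrays, against 578.0, 744.4, 680.5, 632.2 and 718.6 on standard arrays. The difference was 0.20 ± 0.10 (SE; adjusted p = 0.482 by limma) and 0.24 without cafeteria replicate 5. Wfs1, the ER membrane protein mutated in Wolfram syndrome, gave 523.9, 808.5, 580.0, 700.5 and 624.7 on cafeteria arrays, against 463.8, 636.3, 454.6, 499.2 and 577.4 on standard arrays, a difference of 0.29.

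Xbp1, the transcription factor that IRE1 switches on by splicing, gave 9640.4, 9814, 8473, 10146 and 11301 on cafeteria arrays, against 9647, 9084, 8449, 9096 and 9449 on standard arrays. Cafeteria replicate 5 was the highest array and the other cafeteria arrays lay among or just above the standard arrays. The difference was 0.11 ± 0.09 (SE; adjusted p = 0.672 by limma) and 0.06 without cafeteria replicate 5. Atf6, the sensor that is cut in the Golgi to release a transcription factor, gave 3300.1, 3499, 2946, 3681 and 3329 on cafeteria arrays, against 3439.7, 2941, 3189, 3173 and 3904 on standard arrays. Its groups overlapped fully, with a difference of 0.01 ± 0.10 (SE; adjusted p = 0.974 by limma), which turned to -0.03 after median centring.

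The PERK/CHOP arm had 4 genes, of which 3 had a lower mean on the cafeteria arrays and 1 a higher one, with a median of -0.10 and overlapping groups throughout. The median ran from -0.19 without cafeteria replicate 4 to -0.03 without standard replicate 5, which left 2 genes on each side, and was -0.18 without standard replicate 3, -0.06 without cafeteria replicate 1, -0.03 without cafeteria replicate 3 and -0.05 without standard replicate 2. It was 0.0119 with acinar markers and 0.0025 with endocrine markers as a term in the fit. Atf4, the transcription factor whose translation PERK favours, gave 9758, 11247, 9462, 12491 and 11172 on cafeteria arrays, against 11746, 13066, 9450.1, 11471 and 12032 on standard arrays. The difference was -0.09 ± 0.11 (SE; adjusted p = 0.77 by limma), and since ATF4 is controlled mainly in translation its mRNA is an incomplete measure of it. Ddit3, which encodes the apoptotic factor CHOP, gave 391.2, 360.2, 385.4, 588.5 and 588.4 on cafeteria arrays, against 549.7, 601.9, 405.6, 440.7 and 554.0 on standard arrays. Cafeteria replicates 1 to 3 were below every standard array, and replicates 4 and 5 were near the top of the standard range. The difference of Ddit3 was -0.16 ± 0.17 (SE; adjusted p = 0.753 by limma) and -0.25 without cafeteria replicate 5.

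Trib3, a pseudokinase downstream of CHOP, averaged 266.7 ± 74.2 on cafeteria arrays and 285.2 ± 69.7 on standard arrays (SD, n = 5 each), a difference of -0.10 that was -0.04 without cafeteria replicate 5. Ppp1r15a, which encodes the phosphatase subunit GADD34 that reverses the PERK signal on translation, averaged 635.6 ± 33.5 on cafeteria arrays and 586.0 ± 73.3 on standard arrays (SD, n = 5 each), a difference of 0.12. Neither difference exceeded the spread between arrays. Whether the chaperone and PERK/CHOP arms differed from each other was not tested.

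**Figure D3:**
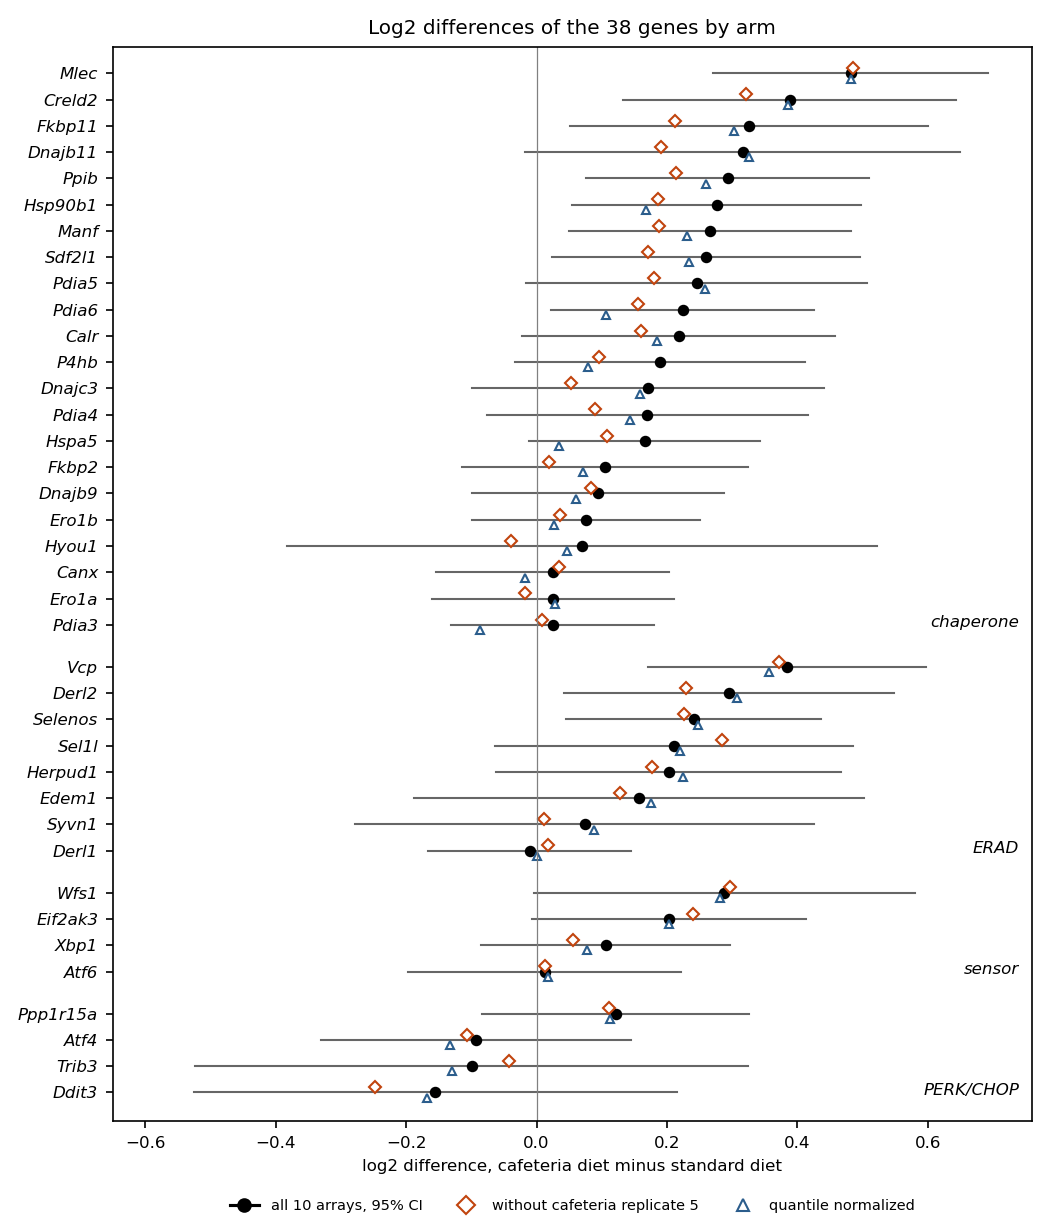
Log2 difference of each member, cafeteria minus standard (horizontal axis), ordered by size within each arm; black points are all 10 arrays with the 95% confidence interval of the limma fit, orange diamonds leave out cafeteria replicate 5 and blue triangles are quantile normalized values. The chaperone arm runs from 0.02 to 0.48 and the PERK/CHOP arm from -0.16 to 0.12, and the interval of Mlec is the farthest from 0.

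A gene can be read by more than 1 probeset, and the brightest was used above. Of the 38 members, 12 had others, and 16 of those 17 probesets passed the filter. The sign matched that of the brightest probeset for 10 of the 16. At an unadjusted p under 0.05, 3 were higher and 0 lower, beside 1941 of all 18625 probesets tested in either direction. The 3 were a second probeset of Mlec, with a difference of 0.38, 1 of Edem1, with 0.66, and 1 of Derl1, with 0.17. The Derl1 probesets disagreed with each other, since the brightest gave -0.01 and the others 0.17 and 0.14, and so did those of Derl2, with 0.30 and -0.03.

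Single arrays carried part of the pattern. Cafeteria replicate 5 was the highest of the 10 arrays for 21 of the 38 members, against 19.6% of all genes tested, and standard replicate 3 was the lowest for 13, against 11.7% of all genes. The mean log2 value of the chaperone arm was 12.88, 12.88, 12.77, 12.86 and 13.18 on cafeteria arrays 1 to 5, against 12.76, 12.73, 12.62, 12.73 and 12.73 on standard arrays 1 to 5. All 5 cafeteria arrays were above all 5 standard arrays in this mean, with replicate 3 nearest to them. Without cafeteria replicate 5 the median chaperone difference was 0.13, 20 of the 22 genes were higher, and 10 members reached an unadjusted p under 0.05, against 3.97% of all genes higher there. None were lower at that p, against 4.15% of all genes. Of those 10 members, 8 were among the 11 found with all arrays. Without standard replicate 3, a count of 6 members was reached, 4 of them chaperones, against 3.96% of all genes.

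**Figure D4:**
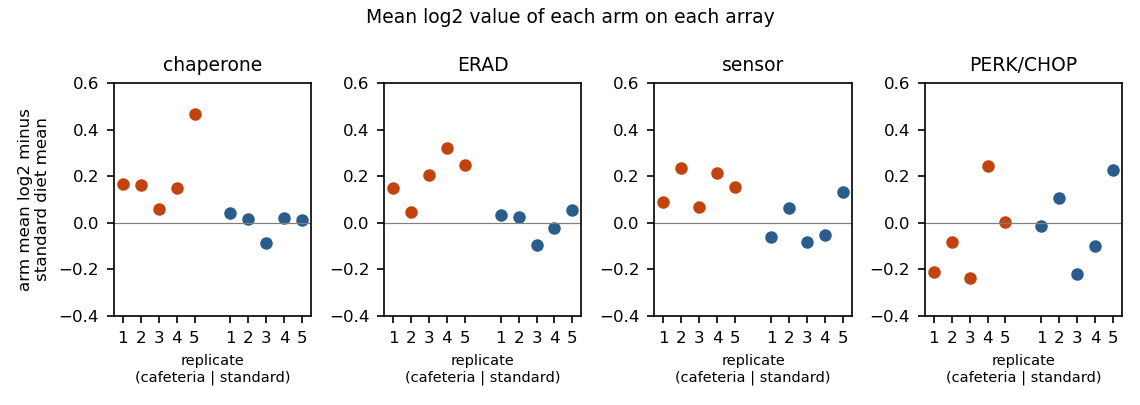
Mean log2 value of each arm on each array minus its mean over the 5 standard arrays (vertical axis), with cafeteria replicates 1 to 5 in orange at the left and standard replicates 1 to 5 in blue at the right of each panel. Cafeteria replicate 5 is far above the others in the chaperone arm, at a mean of 13.18, and in the ERAD arm replicate 4 is the highest, while in the PERK/CHOP arm the groups overlap throughout.

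Scaling moved these counts. The arrays had been scaled to a common trimmed mean. After quantile normalization 12 members were higher at an unadjusted p under 0.05, against 4.7% of all genes, and 10 of them were among the 11 above. After median centring 3 members were (Mlec, Creld2 and Vcp), against 2.22% of all genes. Over all genes at that p, 229 were then higher and 756 lower, where the values as deposited gave 517 higher and 542 lower. The cafeteria arrays all lay above the standard arrays for 7 members after quantile normalization, 6 of the 9 above plus Pdia6, against 1.05% of all genes, and for 1 member (Vcp) after median centring, against 0.214% of all genes.

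Markers of islet cells and of other cells moved with the groups too. The 11 islet endocrine markers measured, among them the insulin, glucagon and somatostatin genes, had a summed signal of 212497 to 270918 on cafeteria arrays, against 181387 to 223536 on standard arrays, the highest being cafeteria replicate 5. Of these, 9 were higher and 2 lower in cafeteria, with a median difference of 0.20, beside 0.20 in the chaperone arm. At an unadjusted p under 0.05, 3 of these markers were higher and 1 lower, against 5.02% and 5.26% of all genes. With the mean of these markers as a term in the fit, the median chaperone difference was 0.09, and 5 members were higher at an unadjusted p under 0.05, against 2.99% of all genes. The 13 macrophage and other immune markers tested all had lower means in cafeteria, with a median of -0.42. Of the 13, 2 were lower at that p, against 5.26% of all genes. All 17 on the array, dim ones included, had a summed signal of 5368 to 19601 on cafeteria arrays, against 5669 to 18863 on standard arrays. With the mean of these 17 as a term, 3 members were higher at that p, against 3.41% of all genes. The median chaperone difference was then 0.18.

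Acinar cells are also rich in ER chaperones. Of their 18 tested markers, 14 had lower means in cafeteria, with a median of -0.39. At an unadjusted p under 0.05, 4 of the 18 were lower and 0 higher, against 5.26% and 5.02% of all genes. All 20 on the array, dim ones included, had a summed signal of 5813 to 26710 on cafeteria arrays, against 11911 to 27617 on standard arrays. With the mean of these 20 as a term, 15 members were higher at that p, against 6.08% of all genes. Plasma and B cells, the other secretory type listed, gave 5 tested markers, all with lower means, 1 of them at that p. Their 8 markers on the array summed to 751.7 to 2246 on cafeteria arrays, against 768.2 to 2164 on standard arrays. No marker of any list was at 0. Duct markers gave 5 of 6 tested higher, 1 of them at that p and 0 lower at it, with a median of 0.16. All 9 duct markers on the array summed to 18086 to 21044 on cafeteria arrays, against 16122 to 18613 on standard arrays. Fibroblast and stellate markers gave 6 of 10 higher, 2 of them at that p and 0 lower at it, with a median of 0.14. Their sums were 22112 to 28649 on cafeteria arrays, against 19200.0 to 24049 on standard arrays. Both sums were highest on cafeteria replicate 5. The 9 endothelial markers had a median of 0.01, with sums of 13586 to 16664 on cafeteria arrays, against 14424 to 17213 on standard arrays. The ratio of the 3′ to the 5′ probeset of GAPDH, a measure of RNA quality, was 0.964 to 1.11 on cafeteria arrays, against 1.00 to 1.26 on standard arrays. With it as a term 14 members were higher at that p, against 4.44% of all genes. They were 13 of the chaperone arm and 1 of the ERAD arm, where Vcp (0.28) and Selenos (0.16) no longer reached that p. The median difference was 0.34 in the chaperone arm and 0.05 in the sensor arm, where Eif2ak3 and Wfs1 each differed by 0.03. The same ratio of actin was 2.24 to 3.01 on cafeteria arrays and 2.51 to 3.20 on standard arrays. It was not used as a term. The part of cell makeup and RNA quality in the differences was otherwise not tested.

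Neighbouring steps of the secretory route were counted in the same way, on genes listed with results for the same arrays known. In ER to Golgi transport, 30 of 32 tested genes had higher means in cafeteria, with a median of 0.12, and 5 reached an unadjusted p under 0.05, beside the 5.02% of all genes given above. Without cafeteria replicate 5 it was 3 of 32, beside 3.97% of all genes. Kdelr3, a receptor that returns escaped chaperones to the ER, averaged 275.1 ± 29.9 on cafeteria arrays and 190.0 ± 61.4 on standard arrays (SD, n = 5 each), a difference of 0.55. Surf4, a cargo receptor of the ER, differed by 0.34 and its groups did not overlap. In translocation and N-glycan transfer, 24 of 32 were higher, 4 at that p (12.5%, against 5.02% of all genes), with a median of 0.09. Without cafeteria replicate 5, 3 were higher at that p, against 3.97% of all genes. The 4 were led by Srp68 (0.21) and Srp19 (0.28) of the signal recognition particle and by Ddost (0.27) of the oligosaccharyltransferase. The groups of Ddost did not overlap.

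Other ER folding genes gave 27 higher of 33, with a median of 0.09 that was 0.04 without cafeteria replicate 5. At an unadjusted p under 0.05, 3 were higher (9.09%, against 5.02% of all genes) and 1 lower (against 5.26% of all genes). The 3 were Fkbp14 (0.39), Uggt1 (0.30), the glucosyltransferase that senses misfolded glycoproteins, and Lman1 (0.37), a cargo lectin. Rcn2 (-0.18), a calcium-binding ER protein, was the lower one, and its cafeteria arrays all lay below the standard arrays. Other ERAD genes gave 14 higher and 11 lower, with a median of 0.11 that was -0.0016 without cafeteria replicate 5. Of these, 2 were higher at that p (8%, against 5.02% of all genes) and 2 lower (against 5.26% of all genes). Edem2 (0.41) and Ube2j2 (0.18) were higher, and Ngly1 (-0.17) and Ubxn8 (-0.31) lower. The groups did not overlap for Ube2j2, with cafeteria above, and for Ngly1, with cafeteria below.

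The 33 tested targets of ATF4 and genes of the integrated stress response gave 10 higher and 23 lower, with a median of -0.08. At that p, 1 gene was higher (3.03%, against 5.02% of all genes) and 2 were lower (against 5.26% of all genes). Without cafeteria replicate 5 the median was -0.05. At that p, 0 were then higher and 3 lower, against 3.97% higher and 4.15% lower over all genes. Atf3, a stress transcription factor, averaged 208.2 ± 59.3 on cafeteria arrays and 323.1 ± 107.1 on standard arrays (SD, n = 5 each), a difference of -0.59. Nupr1, another stress-induced factor, differed by -0.68, and Tars1, a tRNA synthetase, by 0.22. Of 26 cytosolic heat shock genes, 10 were higher and 16 lower, with a median of -0.02. Of these, 1 was higher at that p (3.85%, against 5.02% of all genes) and 1 lower (against 5.26% of all genes). These were Stip1 (0.21) and Hspa4 (-0.68). Without cafeteria replicate 5 there were 0 higher and 1 lower. None of these genes passed the adjusted threshold.

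**Figure D5:**
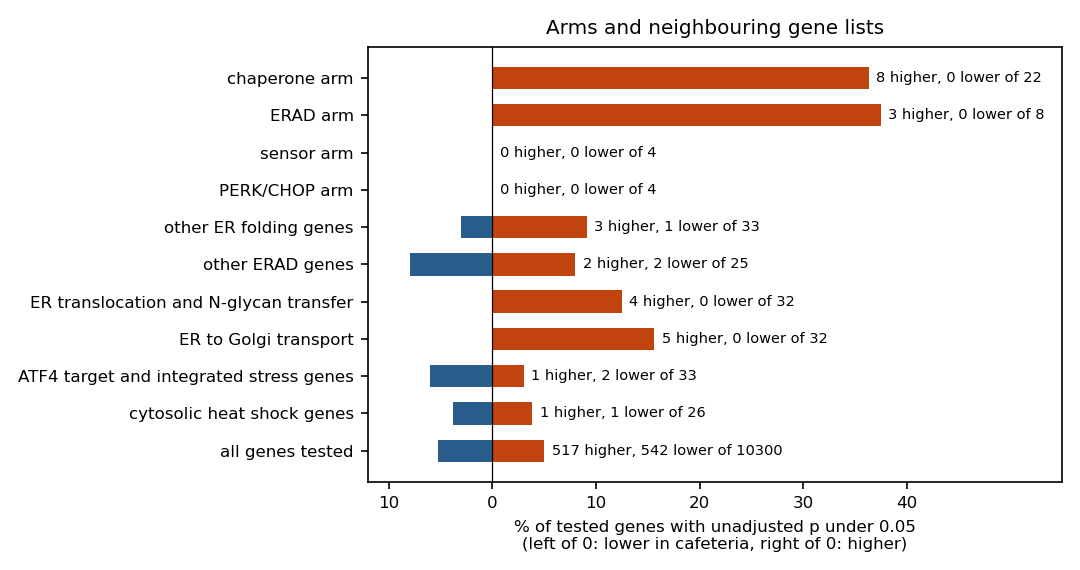
Share of the tested genes of each arm and list with an unadjusted p under 0.05 (horizontal axis, percent), with genes higher in cafeteria to the right of 0 in orange and genes lower in cafeteria to the left in blue, and the counts beside each bar. The chaperone arm has 8 of 22 and the ERAD arm 3 of 8 higher, against 5.02% higher and 5.26% lower over all 10300 genes, and the sensor and PERK/CHOP arms have 0 of 4 in either direction.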

How the data were processed

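Islet RNA of 5 cafeteria diet and 5 standard diet samples was measured on 1-colour arrays. The deposited table holds intensity on a linear scale. MAS5, Affymetrix's probe summary, is the tool given in the submitters' processing notes, and its version is not given in the sources used here. The trimmed mean (2% off each end) was 500.1 to 500.2 on every array and the median signal 150.9 to 173.2. Of 31099 probesets, 57 were controls, 20826 had 1 gene symbol in the platform annotation, 436 had several and 9780 had none (those with several or none were tested but not named). All 38 measured members had the same symbol in RefSeq.

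Values were transformed as log2(value + 14.15), the 10th percentile of all values, so differences of dim genes are understated. Probesets above the 40th percentile of mean log2 value (18625) were tested with limma 3.58.1 in R 4.3.3, with 8 residual degrees of freedom, a prior adding 3.11, and Benjamini-Hochberg adjustment at 0.05. The fit was tested on simulated data. With 5 against 5 arrays an exact permutation test cannot give a two-sided p below 0.00794, so array number limits precision.

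The members and gene lists were chosen with earlier results of these data known. The rule for named genes was all members from the brightest probeset, with p-values for those under an unadjusted p of 0.05 and for Hspa5, Hsp90b1, Xbp1, Atf6, Eif2ak3, Atf4, Ddit3, Herpud1 and Ero1b, and up to 4 genes of lowest p in each other list; the p-value of P4hb and the values by array of P4hb, Wfs1 and Hyou1 were added after seeing their overlap or spread. Alternatives were another pseudocount, filter, normalization, probeset rule or variance model, array weights, each array left out, the replicate number as a block, and marker or RNA quality terms.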

Additional observations from a re-analysis of the deposited data

Results flagged for a closer look

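Within groups of 5 arrays, an array was singled out when its gap to the nearest other array exceeded Dixon's critical value of 0.71 times the group's range. Of 84 sets, 10 were singled out. About 1 in 20, or 4.2, would be expected of independent sets. These sets share the same 10 arrays and include arm means of the same genes, so 4.2 is no yardstick for them. The array was cafeteria replicate 5 in 6 of the 10 sets singled out, always as the highest. On the log2 scale Hsp90b1 was 14.78 on it, against 14.32 to 14.36 on the other cafeteria arrays. Dnajc3 was 12.84 against 12.19 to 12.33, P4hb 14.65 against 14.14 to 14.21, Ppib 13.11 against 12.64 to 12.76, and Fkbp2 13.75 against 13.28 to 13.38. The mean of the chaperone arm was 13.18 on that array, against 12.77 to 12.88 on the other cafeteria arrays.

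Standard replicate 3 was the lowest array of its group for Sdf2l1, at 12.42 against 12.62 to 12.66, for Manf, at 12.77 against 12.90 to 12.93, and for the mean of the chaperone arm, at 12.62 against 12.73 to 12.76. Pdia3 was lowest on standard replicate 5, at 14.13 against 14.26 to 14.31. The cause was not tested.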

How the results depend on the processing

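The count of members higher at an unadjusted p under 0.05 was 11 with all arrays, against 5.02% of all genes. It was 17 with limma's trended and robust variance, against 5.57% of all genes. With the endocrine markers as a term it was 5 (all genes 2.99%), and with the immune markers 3 (all genes 3.41%). Median centring also gave 3 (all genes 2.22%). Over the fits that left out 1 array it ran from 6 without standard replicate 3 (all genes 3.96%) to 15 without cafeteria replicate 3 (all genes 4.93%). Without cafeteria replicate 5 and standard replicate 3 together it was 6 (all genes 3.42%). The covariate terms for endocrine and immune markers and that pair of arrays were chosen after seeing the data. Members with groups that did not overlap, cafeteria above, numbered 9 with all arrays (all genes 1.06%) and 1 with median centring (all genes 0.214%). With the endocrine term, the count of probesets at unadjusted p under 0.05 was 1278, against 1941 without it. Leaving out 1 array gave 0 to 1 probesets past the adjusted threshold, the 1 being a probeset of Emp1 without standard replicate 2. With the GAPDH ratio as a term the median difference was 0.34 in the chaperone arm, against 0.20, and 0.054 in the sensor arm, against 0.15. Atf6 turned to -0.0253 with median centring and ran from -0.0307 to 0.0711 over the fits without 1 array. Across 986 member values from the alternatives, 43 had the opposite sign, all in 11 genes. The causes were not tested. With the replicate number as a block, 15 members were higher at an unadjusted p under 0.05, against 5.61% of all genes. With that block 0 probesets passed the adjusted threshold. Deviations of same-numbered arrays correlated at 0.0033, 0.30, 0.25, -0.0017 and 0.14. Of 10 arrays, 5 correlated best with their own number, a hint of pairing from the data. Since the labels give no shared source and 2 of the 5 pairs did not deviate together, the numbers were not taken to pair the samples. With 5 arrays a group and no detection calls, small differences may go unseen, and Hyou1 and Trib3 had the largest standard errors (0.206 and 0.193) of the members.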
